A study of Mus musculus with 24 samples.

Results

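Transcripts of 10 genes of the cyclic AMP (cAMP) and protein kinase A (PKA) pathway were followed in mouse oocytes with and without the chromatin remodeller Snf2h. The genes were taken by symbol, and all 10 had 1 row each among the 16940 genes kept from the deposited expression table. They encode the receptor Gpr3, the stimulatory G protein alpha subunit (Gnas), the adenylyl cyclases Adcy3 and Adcy9, the phosphodiesterase Pde3a, the PKA catalytic subunits Prkaca and Prkacb, and the PKA regulatory subunits Prkar1a, Prkar2a and Prkar2b. Of these, 9 reached the level needed for testing, at least 1 RPKM in at least 2 libraries, and Adcy3 did not. RPKM is a level scaled to transcript length and to the reads of the library, meant to let levels of different genes be set side by side. How the deposited values were computed is not stated. Orders of genes and sums over genes given here rest on them.

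An oocyte waits for a long time in prophase of its first meiotic division, and cAMP made in the oocyte itself is what keeps it there. Gpr3, a receptor that is active without an added ligand, acts through the G protein encoded by Gnas to turn on adenylyl cyclase, and Adcy3 is the cyclase known for this role in rodent oocytes. Cyclic AMP binds the regulatory subunits of PKA and frees the catalytic subunits, which through their substrates hold the cell cycle kinase Cdk1 inactive. Pde3a breaks cAMP down when the block is lifted, and mouse oocytes that lack it stay in prophase. The regulatory subunits fall into type I (Prkar1a) and type II (Prkar2a and Prkar2b), and type II subunits in particular are held at fixed places in the cell by A-kinase anchoring proteins.

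The mice were of the B6/129 strain. Wild-type (WT) oocytes were Snf2h(fl/fl), with both alleles floxed and no Cre, and knockout (KO) oocytes were ZP3-Cre, Snf2h(fl/fl). The Zp3 promoter drives Cre in growing oocytes, and since no WT group carried Cre, an effect of Cre and one of Snf2h loss cannot be told apart. Growing oocytes were taken at 40 to 45 µm (GO1) and at 50 to 55 µm (GO2), and fully grown oocytes above 70 µm either without hormone stimulation (nFGO) or after it (FGO). Each of the 8 groups had 2 RNA-seq libraries of 20 oocytes, 16 in all. The ages of the mice are not given in the sources used here. Nothing in the labels ties replicates to separate animals, and p-values cover only the spread between the samples at hand, which may be technical. The 8 ATAC-seq samples were not analysed here.

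Library totals ran from 832384 to 1011540 RPKM, the read depth behind them is unknown, and Pearson r between the libraries of a group was 0.980 to 0.990 over genes, whose values are not independent. Smarca5, the gene of Snf2h, lay between 13.9 and 48.7 RPKM in WT libraries and between 0.701 and 2.06 RPKM in KO libraries, with WT FGO replicate 2 as the low WT value. The 2 KO GO1 libraries differed from each other: with KO GO1 replicate 2 left out, 18.8% of all genes were called at GO1, against 1.59% to 1.67% when any other GO1 library was left out. All 14 oocyte markers with a row reached 1 RPKM. Of 13 granulosa and cumulus cell markers, 7 had a row, and their summed level was 14.5 to 33.5 RPKM in growing and 36.3 to 72.2 RPKM in fully grown oocytes; Cyp19a1 reached 42.8 RPKM and Lhcgr at most 0.407 RPKM. The nFGO libraries are labelled polyA RNA and the others total RNA, so hormone and RNA label cannot be told apart.

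**Figure D1:**
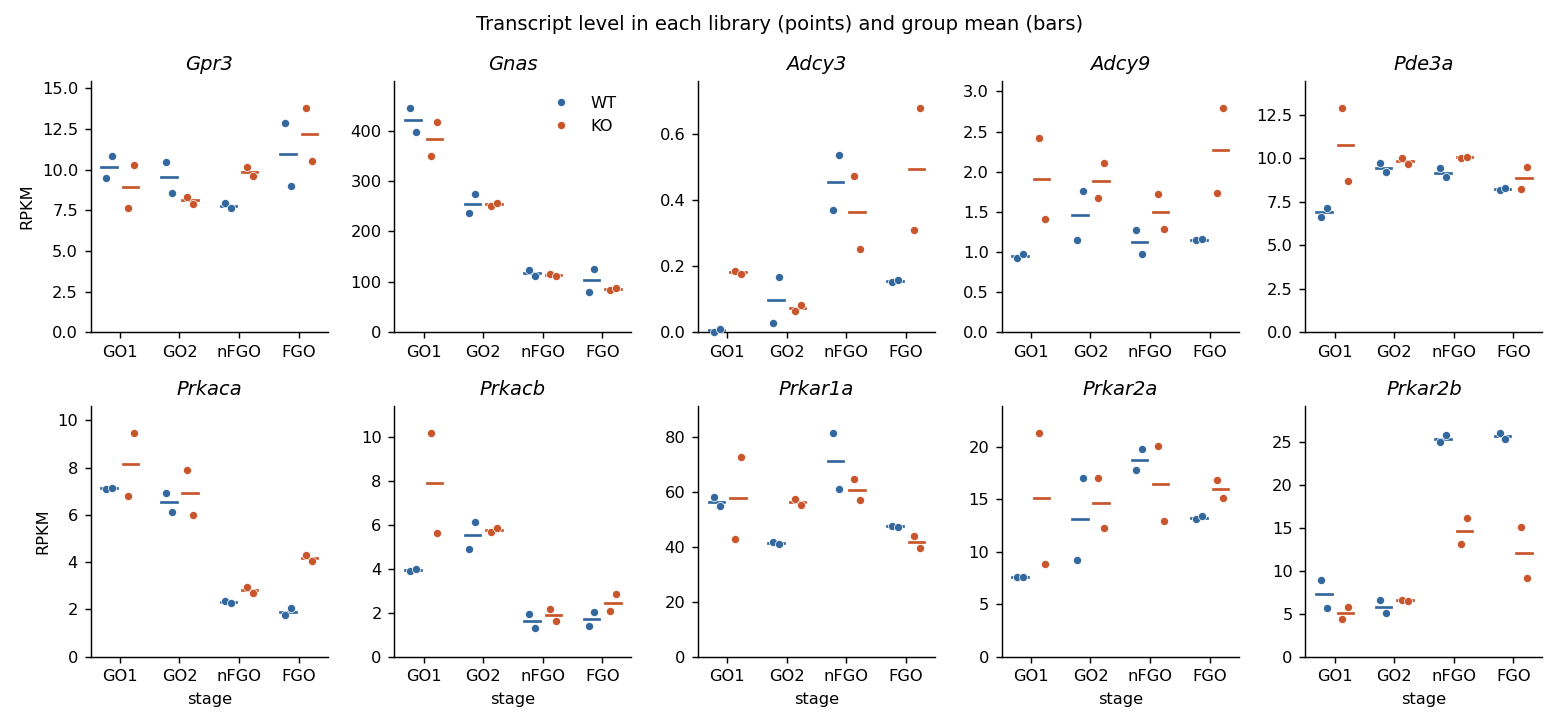
Transcript level (RPKM, linear axis from 0) of the 10 genes in each of the 16 libraries, WT in blue and KO in orange, with the bar at the mean of 2 libraries; each panel has its own scale. Prkar2b stood at 25.0 to 26.1 RPKM in fully grown WT oocytes and at 9.17 to 16.1 RPKM in fully grown KO oocytes.

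In WT oocytes Gnas was the most abundant of the 10 transcripts at every stage and Adcy3 had the lowest RPKM, a value that is uncertain, as set out with its counts. After hormone, the 2 WT FGO libraries held Gnas at 80.3 and 126 RPKM, Prkar1a at 47.5 and 47.4, Prkar2b at 26.1 and 25.4, and Prkar2a at 13.1 and 13.3. Gpr3 followed at 12.9 and 9.02 RPKM and Pde3a at 8.19 and 8.31. The catalytic subunits were lower, Prkaca at 1.76 and 2.06 RPKM and Prkacb at 1.42 and 2.04, and these neighbours overlapped. Adcy9 stood at 1.15 and 1.16 RPKM. In GO2 the order differed below Prkar1a: Prkar2a, Gpr3 and Pde3a overlapped between 8.56 and 17 RPKM, and below them Prkar2b, at 5.13 to 6.55 RPKM, overlapped both Prkaca (6.14 to 6.92) and Prkacb (4.93 to 6.13).

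Over late growth, from GO2 to FGO, the transcripts of Gnas and both catalytic subunits fell in WT oocytes and that of Prkar2b rose. Since FGO oocytes were taken after hormone, growth and hormone cannot be told apart in this comparison, here and below. These were 4 of 9 tested members, where 48.4% of all genes were called, so the share of members was near that of all genes. The median log2 fold change of the 9 was -0.18, and that of all genes tested was 0.04. Here and below, fold changes are on the log2(RPKM + 1) scale, which understates changes of low genes, and a gene was called at a Benjamini-Hochberg adjusted p under 0.05 in limma fitted to all 16 libraries.

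Prkar2b (ENSMUSG00000002997.15, chr12:31958476-32061296, minus strand, mm10) encodes the type II beta regulatory subunit. It stood at 6.55 and 5.13 RPKM in the WT GO2 libraries, at 25.0 and 25.8 in WT nFGO, and at 26.1 and 25.4 in WT FGO. The fully grown libraries all lay above every growing library, which ranged from 4.40 to 8.96 RPKM in both genotypes. The rise from GO2 to FGO was 1.97 ± 0.24 (log2 fold change ± SE, adjusted p = 3.75e-05), or 3.93-fold.

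Prkaca (ENSMUSG00000005469.10, chr8:83972993-83996443, plus strand), which encodes the alpha catalytic subunit, moved the other way. The WT libraries held 7.11 and 7.14 RPKM at GO1, 6.92 and 6.14 at GO2, 2.35 and 2.29 at nFGO and 1.76 and 2.06 at FGO. The growing and fully grown WT libraries did not overlap. The fall from GO2 to FGO was -1.37 ± 0.18 on the log2 scale (adjusted p = 6.55e-05).

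Prkacb (ENSMUSG00000005034.15, chr3:146729574-146812990, minus strand), the gene of the beta catalytic subunit, stood at 4.93 and 6.13 RPKM in WT GO2 and at 1.42 and 2.04 in WT FGO. Its fall was -1.26 ± 0.25 on the log2 scale (adjusted p = 0.00122). Both catalytic transcripts thus fell over the interval in which Prkar2b rose.

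Gnas (ENSMUSG00000027523.19, chr2:174284320-174346744, plus strand) stood at 445 and 398 RPKM in WT GO1, 236 and 275 in GO2, 123 and 111 in nFGO and 80.3 and 126 in FGO. The row spans a complex imprinted locus with overlapping transcripts on both strands, and the library kit does not mark strand, so transcripts of the locus other than that of the G protein cannot be told apart. The fall from GO2 to FGO was -1.33 ± 0.17 on the log2 scale (adjusted p = 5.47e-05). From GO1 to GO2 Gnas was the 1 member called of 9, with 7.55% of all genes called (log2 fold change -0.72, adjusted p = 0.0268). With 1 library left out the share of all genes was 0.0893% to 2%. That earlier call was lost with any of the 4 libraries left out (adjusted p 0.0617 to 0.184). The 4 late calls passed the test with each of the 4 libraries left out.

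The other 5 tested members were not called between WT GO2 and FGO. Gpr3 (ENSMUSG00000049649.8, chr4:133209340-133212536, minus strand) lay between 7.61 and 13.8 RPKM over all 16 libraries. Its WT GO2 and FGO libraries overlapped, and the log2 difference was 0.17 (95% interval -0.26 to 0.60). Pde3a (ENSMUSG00000041741.10, chr6:141249269-141507448, plus strand) ranged from 6.63 to 12.9 RPKM, with a log2 difference from GO2 to FGO of -0.18 (-0.53 to 0.18). Prkar2a (ENSMUSG00000032601.13, chr9:108689314-108750436, plus strand), the type II alpha subunit, ranged from 7.56 to 21.3 RPKM, and its 2 WT GO2 libraries, at 9.17 and 17 RPKM, were far apart. Prkar1a, the type I regulatory subunit, stood at 41.6 and 40.9 RPKM in WT GO2 and at 47.5 and 47.4 in WT FGO (0.20, -0.24 to 0.63). Adcy9 (ENSMUSG00000005580.11, chr16:4287529-4420498, minus strand) ranged from 0.927 to 2.79 RPKM.

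**Figure D2:**
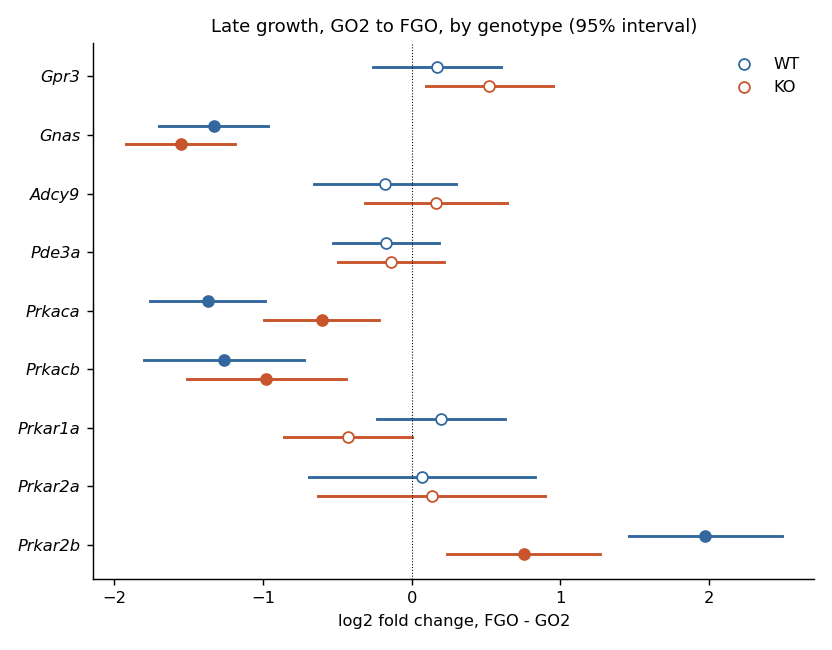
Log2 fold change from GO2 to FGO (limma on log2(RPKM + 1), points with 95% intervals) of the 9 tested genes in WT (blue) and KO (orange) oocytes; filled points passed an adjusted p of 0.05. Prkar2b changed by 1.97 in WT and 0.75 in KO, and Prkaca by -1.37 in WT and -0.61 in KO.

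Fully grown WT oocytes with and without hormone were compared next. Between FGO and nFGO limma called 0 of 9 members in WT, with 1 at an unadjusted p under 0.05 and 2.69% of all genes called. That 1 member was Prkar1a (ENSMUSG00000020612.16, chr11:109649405-109669656, plus strand), at 47.5 and 47.4 RPKM in FGO and 81.6 and 61.1 in nFGO (log2 difference -0.56, adjusted p = 0.167). From GO2 to nFGO, a comparison added after the data were seen, 51.9% of all genes were called, and Gnas (-1.12), Prkaca (-1.18), Prkacb (-1.32), Prkar2b (1.95) and Prkar1a (0.76) were called among the 9, in log2 fold change. The GO2 to nFGO comparison shares the GO2 libraries with the GO2 to FGO one, and its stages carry different RNA labels. The authors' mean counts of Prkar1a, read as WT from Smarca5, were 2332 at GO2 and 1582 at nFGO. They come from separate comparisons that may not share a scale. Mean counts of the other called members moved in the direction of their RPKM. The call of Prkar1a was lost without WT nFGO replicate 1, the higher of the pair (adjusted p = 0.0727).

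In KO oocytes at FGO the transcript of Prkar2b was lower and that of Prkaca higher than in WT. At FGO 2 of 9 members were called, Prkaca higher and Prkar2b lower in KO, with 17.8% of all genes called. At nFGO 1 of 9 was called, Prkar2b, with 16.2% of all genes called. The members' shares were near those of all genes. With 1 library left out the share of all genes fell to between 8.2% and 11.2% at FGO and between 6.59% and 9.44% at nFGO. The median log2 fold change of the 9 was 0.15 at FGO and 0.12 at nFGO, against -0.01 for all genes at both.

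Prkar2b stood at 26.1 and 25.4 RPKM in WT FGO and at 15.1 and 9.17 in KO FGO. Every WT library was above both KO libraries, and the KO pair was far apart. The log2 fold change was -1.06 ± 0.24 (adjusted p = 0.00938), or 0.478-fold in RPKM + 1. Without KO FGO replicate 2, the lower one, the adjusted p was 0.0955. At nFGO the WT libraries held 25.0 and 25.8 RPKM and the KO libraries 13.2 and 16.1, again without overlap. The log2 fold change of -0.76 ± 0.24 just passed the test (adjusted p = 0.0468), and the call was lost with any of the 4 libraries left out (adjusted p 0.083 to 0.233). The authors' deposited table gives Prkar2b as down-regulated at both stages, with log2 ratios of -1.07 at FGO and -0.73 at nFGO.

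Prkaca stood at 1.76 and 2.06 RPKM in WT FGO and at 4.32 and 4.05 in KO FGO. Both KO libraries lay above the WT pair but below every growing library, the lowest of which held 5.98 RPKM. The log2 fold change was 0.83 ± 0.18 (adjusted p = 0.0075), a ratio of 1.78 in RPKM + 1, which understates that of the mean RPKM (1.91 in WT, 4.18 in KO). Without WT FGO replicate 1 the adjusted p was 0.0505. At nFGO the KO libraries, at 2.97 and 2.71 RPKM, were also above the WT pair at 2.35 and 2.29, but the difference of 0.21 was not called (adjusted p = 0.47). The authors' deposited table lists Prkaca as up-regulated at FGO, with a log2 ratio of 1.09. When only the 4 FGO libraries were fitted, neither FGO call remained (adjusted p = 0.0554 for Prkaca and 0.0657 for Prkar2b).

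The summed level of the granulosa and cumulus markers was higher in KO in the same libraries, a difference that was not tested. The sum was 36.3 to 45.5 RPKM in WT FGO and 46.4 to 52.0 in KO FGO, pairs that lay close. It was 42.9 to 45.2 in WT nFGO and 64.0 to 72.2 in KO nFGO. The part of other cells in the values of Prkaca and Prkar2b was not tested, and in such libraries a change in RNA per oocyte and one in the share of other cells cannot be told apart. At GO1 the granulosa sum was lower in KO, at 14.5 to 18.2 RPKM against 20.5 to 21.6 in WT. At GO2 it was higher in KO, at 26.7 to 33.5 RPKM against 17.1 to 22.3 in WT. No member was called at either of these stages. Cyp19a1 and Nr5a2 had the highest medians of these markers, at 19.4 and 9.67 RPKM. Theca and stroma markers, 2 of 5 with a row, summed to under 1 RPKM in every library. Of 6 blood and immune markers 1 had a row, the macrophage gene Cd68, at 1.84 to 2.1 RPKM in WT nFGO and 3.37 to 4.71 in KO nFGO, and at 2.51 to 2.66 in WT FGO and 2.36 to 3.01 in KO FGO. Cd68 was also higher in KO at GO1, at 3.73 to 5.65 RPKM against 2.23 to 3.56 in WT. At GO2 it held 3.56 to 4.39 RPKM in KO against 3.11 to 3.17 in WT. The part of Cd68 in the Prkar2b call at nFGO was not tested.

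**Figure D3:**
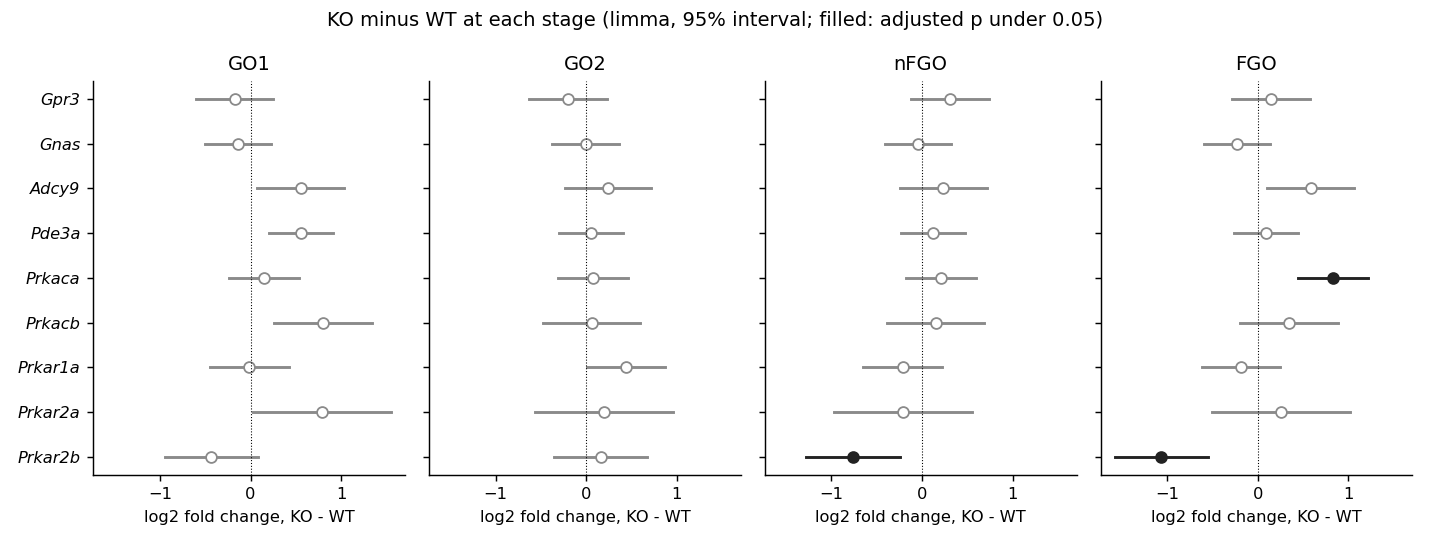
KO minus WT log2 fold change (points, limma on log2(RPKM + 1)) with 95% intervals of the 9 tested genes at each of the 4 stages; filled points passed an adjusted p of 0.05. Prkar2b at nFGO (-0.76) and FGO (-1.06) and Prkaca at FGO (0.83) were the calls.

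In growing oocytes limma called no member. At GO1 0 of 9 passed, with 4 at an unadjusted p under 0.05 and 6.63% of all genes called. At GO2 0 of 9 passed, with 1 at an unadjusted p under 0.05 and 7.64% of all genes called, which fell to between 0.419% and 3.11% with 1 library left out. The 4 members at GO1 were Adcy9, Pde3a, Prkacb and Prkar2a, each with a positive log2 difference. Prkacb stood at 3.90 and 4.01 RPKM in WT GO1 and at 10.2 and 5.65 in KO GO1 (log2 difference 0.80, adjusted p = 0.0726). Pde3a stood at 6.63 and 7.16 RPKM in WT and at 12.9 and 8.69 in KO (0.56, adjusted p = 0.0635).

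For all 4 the KO libraries lay above the WT pair, and KO GO1 replicate 1 was the higher of the KO pair. Prkar2a, at 7.56 and 7.62 RPKM in WT, held 21.3 RPKM in that replicate and 8.87 in the other. Without KO GO1 replicate 2 these 4 members were called, in a fit that called 18.8% of all genes. In the authors' deposited table Adcy9, Pde3a and Prkacb are up-regulated at GO1, with log2 ratios of 1.05, 0.66 and 1.02, and Prkar2a is not. At GO2 the member with an unadjusted p under 0.05 was Prkar1a, at 41.6 and 40.9 RPKM in WT and 57.5 and 55.3 in KO (log2 difference 0.44, adjusted p = 0.20).

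Averaged over the 4 stages, 3 of 9 members were called in KO minus WT, against 33.0% of all genes: Prkar2b lower, Prkaca and Adcy9 higher. Prkar2b changed by -0.53 ± 0.12 (adjusted p = 0.00512) and Prkaca by 0.32 ± 0.09 (adjusted p = 0.0166), log2 fold changes with SE. Both averages hold the FGO values given above. Adcy9, a cyclase, changed by 0.40 ± 0.11 (adjusted p = 0.0142) without passing at any single stage in limma. The authors' deposited table has it as up-regulated at FGO too, with a log2 ratio of 1.0. Its levels were low throughout. The KO libraries held 2.42 and 1.41 RPKM at GO1, 1.67 and 2.1 at GO2, 1.72 and 1.28 at nFGO, and 1.74 and 2.79 at FGO. The WT libraries held 0.927 and 0.980 RPKM at GO1, 1.14 and 1.76 at GO2, 1.27 and 0.976 at nFGO, and 1.15 and 1.16 at FGO. KO lay above WT without overlap at GO1, nFGO and FGO, and the genotypes overlapped at GO2. The 3 calls passed the test with each of the 16 libraries left out. Without KO GO1 replicate 2 the count was 6 members, with 36.9% of all genes called.

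Whether the KO effect itself differed between stages was tested for the 9 members. Limma called 0 for FGO against GO2, where 3 had an unadjusted p under 0.05 and 3.80% of all genes were called. It called 0 for GO2 against GO1 (0 at an unadjusted p under 0.05, 4.0% of all genes) and 0 for FGO against nFGO (1 at an unadjusted p under 0.05, 0.0618% of all genes). The KO effect at FGO less that at GO2 was -1.22 on the log2 scale for Prkar2b (95% interval -1.95 to -0.49, adjusted p = 0.0648). For Prkaca it was 0.77 (0.22 to 1.31, adjusted p = 0.109), and for Prkar1a -0.63 (-1.24 to -0.01, adjusted p = 0.232). Without KO FGO replicate 1 the FGO against GO2 count was 1, and without KO GO1 replicate 2 the GO2 against GO1 count was 3, in a fit that called 16.5% of all genes.

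In KO oocytes the same 4 members were called between GO2 and FGO, in a comparison added after the data were seen that called 41.7% of all genes. Growth and hormone cannot be told apart in it, and KO nFGO was not compared with KO GO2. From GO2 to FGO in KO, Gnas changed by -1.56, Prkacb by -0.98, Prkaca by -0.61 and Prkar2b by 0.75 on the log2 scale. Prkaca went from 7.91 and 5.98 RPKM to 4.32 and 4.05, and Prkar2b from 6.65 and 6.53 RPKM to 15.1 and 9.17. Gnas passed with each of the 4 libraries left out. Prkacb lost its call without KO FGO replicate 1. Prkaca passed only without KO GO2 replicate 2 (adjusted p up to 0.152). Prkar2b passed only without KO FGO replicate 2, with log2 fold changes of 0.42 to 1.08 (adjusted p up to 0.223), and was lost with only the KO GO2 and FGO libraries fitted (adjusted p = 0.0629). Over all refits of this comparison members lost a call in 8 and gained one in 7. The difference between genotypes in these changes is the FGO against GO2 test above.

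Set together, the transcripts of the PKA subunits gave each stage a composition, described here with no test. Regulatory transcripts outnumbered catalytic ones per length in every library. In WT the catalytic pair summed to 14.8 and 16.4 RPKM per 100 RPKM of regulatory subunits at GO1 and to 20.7 and 19.5 at GO2. The value was 3.45 and 3.39 at nFGO and 3.67 and 4.76 at FGO. In KO it was 24.8 and 17.3 at GO1, 16.8 and 16.0 at GO2, 5.27 and 5.04 at nFGO, and 8.44 and 10.8 at FGO. Fully grown KO libraries lay above fully grown WT libraries and below every growing library.

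Prkar1a was the main regulatory transcript in every library, from 54.8% to 83.2% of the summed regulatory RPKM. Prkar2b made up 12% and 8.36% of it in WT GO1, 11.4% and 8.14% in WT GO2, 20.1% and 24.2% in WT nFGO and 30.1% and 29.5% in WT FGO. In KO nFGO it made up 13.4% and 18.7% and in KO FGO 19.9% and 14.4%. Prkar2b was above Prkar2a in all 4 fully grown WT libraries, at 1.31 to 1.99 times its RPKM. In KO FGO it was below, at 0.895 and 0.607 times, and in KO nFGO at 0.657 and 1.25 times. These are transcript levels, and protein was not measured.

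**Figure D4:**
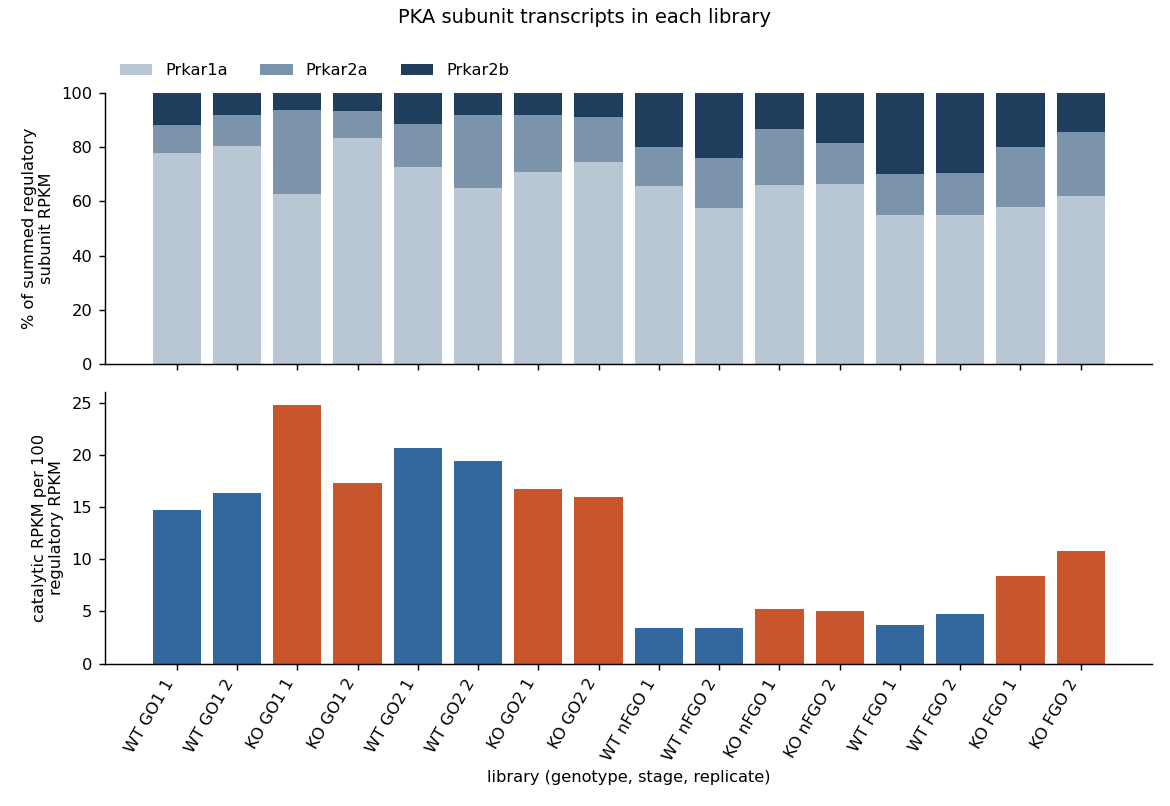
PKA subunit transcripts in each of the 16 libraries: above, the share of the summed regulatory RPKM that each regulatory subunit held (%), and below, the summed RPKM of Prkaca and Prkacb per 100 RPKM of regulatory subunits, WT in blue and KO in orange. The lower value was 3.39 to 4.76 in fully grown WT, 5.04 to 10.8 in fully grown KO and 14.8 to 24.8 in growing oocytes.

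The promoters of the 3 genes called in the mean of the 4 stages are shown because these averages went in opposite directions, Prkar2b lower and Prkaca and Adcy9 higher in KO. Each sequence is the 250 bases before the transcription start in RefSeq (GRCm38.p6, the assembly that mm10 names), on the gene's strand, which need not match the boundary in the deposited table. Capitals mark GC boxes (GGGCGG, or CCGCCC on the other strand) and half-sites of the cAMP response element (TGACG or CGTCA), the element that the PKA substrate CREB binds. The windows are chr12:32061278-32061527 for Prkar2b, chr8:83972728-83972977 for Prkaca and chr16:4420499-4420748 for Adcy9.
Prkar2b: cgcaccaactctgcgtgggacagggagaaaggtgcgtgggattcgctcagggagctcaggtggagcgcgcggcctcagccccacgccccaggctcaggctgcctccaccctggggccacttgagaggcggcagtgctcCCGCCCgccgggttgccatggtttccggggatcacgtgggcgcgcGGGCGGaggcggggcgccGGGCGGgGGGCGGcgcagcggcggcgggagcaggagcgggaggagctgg
Prkaca: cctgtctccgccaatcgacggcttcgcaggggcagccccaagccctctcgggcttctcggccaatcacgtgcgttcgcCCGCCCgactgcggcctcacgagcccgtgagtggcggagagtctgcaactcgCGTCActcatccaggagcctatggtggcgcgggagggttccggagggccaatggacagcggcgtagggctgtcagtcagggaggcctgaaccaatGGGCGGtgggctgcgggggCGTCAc
Adcy9: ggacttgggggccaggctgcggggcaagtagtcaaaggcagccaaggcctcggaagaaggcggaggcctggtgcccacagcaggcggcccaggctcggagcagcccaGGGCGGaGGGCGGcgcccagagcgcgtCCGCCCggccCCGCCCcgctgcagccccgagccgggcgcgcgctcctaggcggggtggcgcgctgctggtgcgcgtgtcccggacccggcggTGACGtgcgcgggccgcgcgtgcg
The Prkar2b window held 4 GC boxes and 0 half-sites, the Prkaca window 2 GC boxes and 2 half-sites, and the Adcy9 window 4 GC boxes and 1 half-site. G and C made up 75.6% of bases in Prkar2b, 68.8% in Prkaca and 78.8% in Adcy9, with a median of 52% over all 27025 promoters.

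A RefSeq promoter was found for 9 of the 10 genes, Pde3a being the other. Of the 9, 7 held a GC box, which 32.9% of all promoters of that length hold, and 5 held a half-site, which 17.9% hold. These shares are no like comparison and were not tested. Each member's start was the one nearest the 5' end of its row, and the others were the first listed per gene. The Gnas window thus lies at the 5' end of its locus and need not be that of the G protein transcript. G and C made up 61.6% to 78.8% of bases in the members' windows except Prkar1a (40.4%), against the median of 52%. The full cAMP response element (TGACGTCA), which contains the half-site, was in 0 of 9 and in 1.62% of all promoters. The E-box (CANNTG) was in 4 of 9 and in 66% of all, and the TAATTG element bound by the oocyte factor NOBOX in 0 of 9 and in 7.34% of all. All motifs were searched on both strands. A match describes letters in the window and is not evidence of binding.

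Adcy3 (ENSMUSG00000020654.15, chr12:4133103-4213525, plus strand), the cyclase of the prophase block in rodents, was listed at 0 to 0.678 RPKM. Its values were 0 and 0.0106 RPKM in WT GO1, 0.0286 and 0.167 in WT GO2, 0.369 and 0.537 in WT nFGO and 0.150 and 0.159 in WT FGO. In KO they were 0.186 and 0.176 RPKM at GO1, 0.0642 and 0.0828 at GO2, 0.472 and 0.253 at nFGO and 0.308 and 0.678 at FGO. The KO pair lay above the WT pair at GO1 and FGO, and the pairs overlapped at nFGO and GO2. With no filter on low values, over 16766 genes, Adcy3 was called in no KO minus WT comparison (adjusted p = 0.0675 at FGO). By RPKM it was called from GO2 to nFGO in WT (log2 fold change 0.40, adjusted p = 0.0168) and from GO2 to FGO in KO (0.47, adjusted p = 0.0107).

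The deposited quantities for Adcy3 stood in a different proportion to each other than those of Adcy9. The authors' deposited table gives Adcy3 mean counts of 58.6 and 65.0 in the groups at GO1, where its RPKM ran from 0 to 0.186. The same table gives Adcy9 mean counts of 76.9 and 159 at GO1, where its RPKM ran from 0.927 to 2.42. For KO over WT the authors' deposited table gives Adcy3 log2 ratios of -0.07 at FGO and 0.50 at nFGO, where the fits to RPKM gave 0.36 and -0.09, so the direction differed as well. The level of Adcy3 and its changes in these oocytes are therefore uncertain here, and in the authors' table it is placed in a low expression class at all 4 stages. Other members differed between the quantities too. For KO over WT, Prkar2a at FGO had -0.03 from the authors and 0.25 by RPKM, and Prkar1a at nFGO had -0.02 and -0.22. Neither was called. For the single-stage calls of Prkar2b and Prkaca the direction was the same in both.

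Around the members, a list of 87 other genes of cAMP signalling was read, of which 69 had a row and 63 were tested. At FGO 4 of the 63 were higher and 6 lower in KO, 15.9% in all, against 17.8% of all genes. The median log2 fold change was 0.04 in the list and -0.01 over all genes, so the list as a whole did not stand out from them. Pde1a, a calcium-activated phosphodiesterase, stood at 3.74 and 4.97 RPKM in WT FGO and at 0.681 and 0.708 in KO FGO (log2 fold change -1.65, adjusted p = 0.000195). Akap6, an anchoring protein that binds type II PKA, stood at 3.17 and 4.81 RPKM in WT and at 1.03 and 0.647 in KO (-1.43, adjusted p = 0.00358). Pkig, a PKA inhibitor, stood at 65.3 and 66.1 RPKM in WT and at 99.5 and 99.7 in KO (0.59, adjusted p = 0.00298). These 3 passed with each FGO library left out. The cAMP-activated exchange factors of Rap moved apart, Rapgef4 lower (-1.10, adjusted p = 0.0131) and Rapgef3 higher (1.18, adjusted p = 0.0104), and both lost the call without WT FGO replicate 1 or KO FGO replicate 1, Rapgef4 also without KO FGO replicate 2. The G protein gamma subunits Gng2 (-1.26, adjusted p = 0.0166) and Gng10 (0.90, adjusted p = 0.033) lost theirs without WT FGO replicate 1 or KO FGO replicate 2, Gng10 also without WT FGO replicate 2.

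At nFGO 1 of the 63 was higher in KO and 7 lower, 12.7% in all, against 16.2% of all genes. Gng10 was the higher one, at 5.46 and 6.03 RPKM in WT and 25.9 and 25.9 in KO (log2 fold change 2.0, adjusted p = 0.000538). Rapgef4 was lower, at 38.7 and 23 RPKM in WT and 11.2 and 10.4 in KO (-1.39, adjusted p = 0.00467), as was the anchoring protein gene Akap9 (-0.93, adjusted p = 0.00412), and these 3 passed with each nFGO library left out. The G protein beta subunit Gnb4 (-0.71), the cyclase Adcy5 (-0.59) and the transcription factor Atf1 (-0.86) were called too. Gnb4 lost the call without WT nFGO replicate 2, Atf1 without any library but KO nFGO replicate 2, and Adcy5 with any of the 4 left out. At GO1, where 6.63% of all genes were called, the list had 1 call higher, the CREB coactivator kinase Sik3 (1.21), and 1 lower, Pde1a (-0.82), both kept only in the fit without KO GO1 replicate 2. At GO2, where 7.64% of all genes were called, it had 3 lower, Gng5 (-0.66), the phosphodiesterase Pde4b (-0.64) and Sik1 (-1.53), all lost without WT GO2 replicate 2 and without KO GO2 replicate 2. Sik1 was also lost without WT GO2 replicate 1, and Pde4b with any of the 4 left out. Averaged over the stages, 8 of the 63 were higher and 13 lower, 33.3% in all, against 33.0% of all genes. Gng10 (0.85), Pkig (0.26), Akap10 (0.45) and Rapgef3 (0.62) were higher, and Adcy5 (-0.37), Pde1a (-0.74), Akap6 (-0.56) and Rapgef4 (-0.72) lower. These 8 passed with each of the 16 libraries left out. Gng2 (-0.51), Pde10a (-0.42) and Pkib (-0.39) were called lower too. Each of them lost the call without WT GO2 replicate 1, KO GO2 replicate 1 or WT FGO replicate 1, among others.

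Over late growth in WT, 11 of the 63 rose and 20 fell, 49.2% in all, against 48.4% of all genes, of which 3831 rose and 3217 fell. The median log2 fold change was -0.21 in the list and 0.04 over all genes. Rapgef4 rose by 2.56 on the log2 scale, from 3.13 and 5.71 RPKM in GO2 to 32.6 and 27.5 in FGO, Akap6 by 1.86, Grk4, a receptor kinase, by 1.49 and the cyclic GMP phosphodiesterase Pde9a by 1.39. The PKA inhibitor Pkib fell by 2.08, from 44.4 and 41.2 RPKM to 11.2 and 7.81, the cyclase Adcy1 by 1.85, the G protein beta subunit Gnb1 by 1.53, Pde4b by 1.45, the G alpha chaperone Ric8a by 1.26 and the arrestin Arrb2 by 1.15. Adjusted p-values of these 10 ran up to 0.00344, and each passed with every WT GO2 and FGO library left out. The 10 were picked for this. Adcy8 (log2 fold change 0.48), Prkx (-0.83), Akap12 (-0.81) and Crem (-0.83) were also called, and each lost the call without WT GO2 replicate 2.

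Among all tested genes, those whose log2 levels followed a member most closely over the 16 libraries were Snrpb (Pearson r = 0.98), Avpi1 (0.979) and Ntmt1 (0.978) for Prkaca. For Gpr3 they were Fbxl6 (0.872), Brms1 (0.846) and Phb2 (0.828), and for Pde3a Pcbp2 (0.897), Lrrc8b (0.888) and Gm37335 (0.883). For Adcy3 they were Plekha1 (0.897), Mfhas1 (0.876) and Dusp18 (0.868), and these rest on its uncertain RPKM of 0 to 0.678. These are descriptions over libraries that share stage and genotype. Downstream of PKA, Wee2, the oocyte kinase that inhibits Cdk1, was lower in KO at GO1 (log2 fold change -0.49, adjusted p = 0.0176). That call was kept in 1 of 4 fits that left out a library, the one without KO GO1 replicate 2, and was lost in the others (adjusted p 0.0732 to 0.113, log2 fold change -0.32 without KO GO1 replicate 1) and with only the GO1 libraries fitted (adjusted p = 0.27). Wee2 stood at 272 to 286 RPKM in all 4 FGO libraries. Cdc25b and Cdk1 were called at no stage in KO minus WT.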

How the data were processed

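RNA of 16 oocyte libraries was measured by RNA-seq, made with a SMARTer Ultra Low Input kit and Nextera XT and read single-end, per the labels' protocols. RPKM per gene and library was deposited by the authors on mm10, per the file headers. The submitters' processing notes name Cuffnorm, Cufflinks 2.2.1, HISAT2 2.1.0, Trim Galore 0.4.5, deepTools 3.0.2 and DESeq 1.34.1, without their roles. The authors' deposited comparisons hold mean counts, log2 ratios and p-values with no word on adjustment. Their header names no direction, and they were read as KO over WT because Smarca5 is down-regulated in them (log2 ratio -4.86 at GO1).

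The table had 18060 lines for 16975 gene IDs, and 35 IDs written 32 times each with conflicting values were left out, no member among them. Of the 16940 genes kept, 16936 matched a symbol. Whole reads could not be recovered: 25.9 to 32.1% of ratios of values under 0.2 RPKM lay within 2% of ratios of whole numbers up to 3. No count test was run.

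On the log2(RPKM + 1) scale, the 14557 genes that reached 1 RPKM in 2 or more libraries were fitted in limma 3.58.1 (R 4.3.3) with 1 mean per group, no replicate block, a variance trend, 8 residual and 4.01 prior degrees of freedom. The Benjamini-Hochberg adjustment was made within each comparison over all tested genes. The procedure was tested on simulated data.

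All 10 members are named, and from each class of the pathway list up to 2 called genes with the largest change per comparison, of which those described are given; for Gpr3, Adcy3, Pde3a and Prkaca the 3 genes of highest r are named. The members and lists were chosen with earlier results of these data known. Alternatives covered the pseudocount, filter, scaling, variance trend, replicate block, libraries in the fit and each library left out.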

Additional observations from a re-analysis of the deposited data

Results flagged for a closer look

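No member's KO effect differed between stages past the test (limma, Benjamini-Hochberg). Among the other genes of cAMP signalling, and for Wee2, it did in 10 cases. For FGO less GO2, 3 of the 63 tested genes of the list were higher and 3 lower, 9.52% in all, against 3.80% of all genes. For GO2 less GO1, 0 of the 63 were higher and 3 lower, 4.76% in all, near the 4.0% of all genes. Each case is given as the KO effect at the later stage less that at the earlier one, on the log2 scale. Each is followed by how many of the 8 fits that left out 1 library kept the call. For FGO less GO2 the difference was -1.72 for Pde1a (adjusted p = 0.00613, kept in 8 of 8), -1.68 for Akap6 (adjusted p = 0.0301, kept in 2 of 8) and -0.52 for Gng12 (adjusted p = 0.0174, kept in 3 of 8). It was 0.69 for Pkig (adjusted p = 0.0275, kept in 1 of 8), 2.1 for Sik1 (adjusted p = 0.0308, kept in 2 of 8) and 1.35 for the CREB coactivator Crtc2 (adjusted p = 0.0231, kept in 0 of 8). For GO2 less GO1 it was -0.72 for Gng5 (adjusted p = 0.034, kept in 1 of 8), -2.31 for Sik1 (adjusted p = 0.0247, kept in 2 of 8), -1.65 for Sik3 (adjusted p = 0.0213, kept in 2 of 8) and 0.68 for Wee2 (adjusted p = 0.0309, kept in 1 of 8).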

How the results depend on the processing

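Of 1724 refits of single members, 1672 kept their direction where called and their side of the threshold, 26 lost a call, 26 gained one and 0 reversed; a change of sign in a value never called was not counted. Most of these refits were of results not called in the report, which had no call to lose. The number of members called at nFGO in KO minus WT, 1 in the report, was 0 with a pseudocount of 0.1, no filter, equal library medians, quantile normalization or no variance trend. At FGO it was 0 in place of 2 with only the libraries compared. For the KO effect at FGO against GO2 it was 1 in place of 0 with a pseudocount of 5. With 1 library left out the count ran from 0 to 4 at GO1, 0 to 0 at nFGO, 1 to 2 at FGO and 3 to 6 over the mean of 4 stages. It ran from 0 to 0 for WT GO2 minus GO1, 1 to 4 for KO FGO minus GO2, 0 to 3 for the KO effect at GO2 against GO1 and 0 to 1 for that at FGO against GO2. The 4, 6 and 3 came without KO GO1 replicate 2; the last 1 came without KO FGO replicate 1; the cause was not tested.

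No pairing by replicate number was detected: deviations of same-numbered libraries correlated at -0.184 to 0.131 over 28 pairs of groups, 1 of them over 0.1. Low values cannot show that same-numbered libraries were collected or processed separately. With the replicate number as a block the counts of members were 0 at GO1, 0 at GO2, 1 at nFGO, 2 at FGO, 3 over the mean of 4 stages, 1 for WT GO2 minus GO1, 4 for WT FGO minus GO2 and 0 for each difference between KO effects.

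Over all genes, the KO effect at GO2 against GO1 had 582 calls, and 101 with no variance trend; at FGO against nFGO it had 9, and 4. At GO1 314 of 965 calls were higher in KO, and 427 of 981 with equal library medians; at GO2 431 of 1112, and 551 of 1078 with quantile normalization. With 2 libraries a group and unknown depth, a difference that misses the threshold is not shown to be absent, least of all for Adcy9, Prkaca and Prkacb, at a few RPKM, and Adcy3, under 1 RPKM.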
